A study of Mus musculus with 2 samples.

Results

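Monocytes with low C1q were the cells of mouse prostate that carried UMIs (unique molecular identifiers, each counting 1 captured mRNA) of blood monocyte genes and almost none of the complement genes of settled macrophages. They were chosen on measured values. A cell had to hold at least 5 UMIs of Ly6c2, Chil3, Plac8, Ms4a4c, Vcan and Ccr2 together, at least 10 of Lyz2 and at least 1 of Csf1r. C1qa, C1qb and C1qc had to make up less than 0.2% of its UMIs, and S100a8 and S100a9 less than 0.3%. Retnla and Ear2 had to stay under 5 UMIs together, Cd209a and Flt3 at 0, and Cd3d, Cd3e and Cd3g at no more than 1. The rule kept 68 of 7768 cells of the tumour library and 51 of 6209 cells of the normal adjacent library, 119 of 13977 in all. The cells counted were barcodes with at least 200 genes and at most 20% mitochondrial UMIs.

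The study sequenced single cells from a mouse prostate tumour (1 library) and from normal prostate beside tumour (1 library). Cells of both tissues were released with collagenase and trypsin, sorted as CD45+ and CD45- fractions, and loaded together into 1 channel of a droplet system per sample that reads the 3′ ends of mRNAs. For the animals, the labels used here name no strain, age, tumour model or number. The title of the normal adjacent sample calls it healthy, while its tissue label says that it was normal tissue adjacent to tumour. With 1 library per condition no test between conditions was possible. Every interval below is a 95% interval that covers counting error only, not the spread between animals, and mouse, dissection, sort and tissue cannot be told apart.

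Classical monocytes leave the bone marrow through the chemokine receptor Ccr2, circulate with high Ly6c surface protein and enter inflamed or tumour-bearing tissue, where they can become macrophages or cells with dendritic features. Non-classical monocytes, which patrol the vessel wall, arise from classical ones under the transcription factor Nr4a1 and lose Ly6c and Ccr2. Monocytes that settle as macrophages start to make C1q, Apoe and other scavenging genes, so a low C1q level marks the early end of that course.

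The libraries held 8237 barcodes and 92188538 UMIs (tumour) and 6553 barcodes and 77855775 UMIs (normal adjacent), and the filter removed 469 tumour and 344 normal adjacent barcodes. The gated cells held 628052 UMIs in the tumour library, with a median of 9072.5 per cell, and 575419 in the normal adjacent library, with a median of 11108 per cell. Their median mitochondrial share was 2.40% in the tumour library and 1.81% in the normal adjacent library. Of all barcodes 18 occurred in both libraries, and 1 gated cell, in the normal adjacent library, carried a barcode that was also present among the filtered tumour cells. Levels below are counts per 1000000 UMIs (CPM), summed over a set of cells in 1 library. Ratios are given only between sets of cells for the same gene.

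Gated monocytes made up 0.875% of filtered tumour cells (0.680 to 1.11) and 0.821% of filtered normal adjacent cells (0.612 to 1.08), a difference of 0.0540 percentage points (-0.262 to 0.358). The loaded mix of CD45+ and CD45- cells can set such a share. Among mononuclear phagocytes, taken as cells that met the Lyz2, Csf1r, S100 and Cd3 limits, they made up 68 of 725 cells in the tumour library (9.38%, 7.36 to 11.7) and 51 of 422 cells in the normal adjacent library (12.1%, 9.13 to 15.6). The difference was -2.71 points (-6.66 to 0.923). Both intervals included 0, so a change in frequency was not detectable with these cell numbers.

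The 6 monocyte genes chose the cells, and their values are given as a description. Plac8, a small cysteine-rich protein of myeloid cells, had 3567 CPM in gated tumour cells and 2638 CPM in gated normal adjacent cells and was detected in 67 of 68 tumour and 47 of 51 normal adjacent cells. Ly6c2, which encodes the Ly6c surface protein, had 820 CPM in the tumour library and 746 CPM in the normal adjacent library (51 tumour and 34 normal adjacent cells). Ccr2 had 468 CPM in tumour cells and 507 CPM in normal adjacent cells (59 tumour and 40 normal adjacent cells). Chil3, a chitinase-like protein of monocytes fresh from the marrow, had 264 CPM in the tumour library and 516 CPM in the normal adjacent library, and Vcan, a matrix proteoglycan, 97.1 CPM in tumour cells and 48.7 CPM in normal adjacent cells. Ms4a4c, a membrane protein of monocytes, had the highest ratio of tumour over normal adjacent among the 6, with 572 CPM in tumour cells and 278 CPM in normal adjacent cells, a ratio of 2.06 (1.70 to 2.49), in 58 tumour and 37 normal adjacent cells. Of the 6 genes, 10 tumour cells and 5 normal adjacent cells carried all, and 1 tumour cell and 4 normal adjacent cells carried a single one. Reads of Ly6c2 could be shared with its near-identical neighbour Ly6c1, which was listed at 6.37 CPM in gated tumour cells and 6.95 CPM in gated normal adjacent cells. All 6 were present in both libraries, and since they chose the cells, the check of the cell type rests on the genes outside the rule described next.

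**Figure D1:**
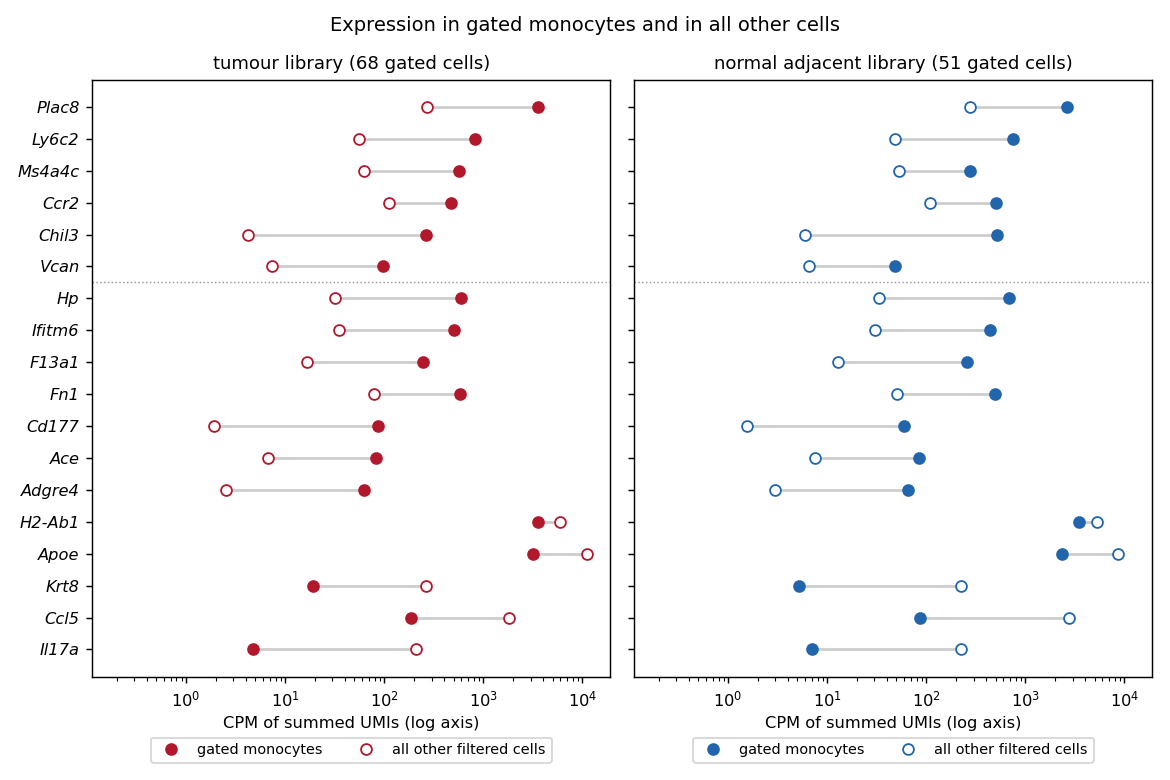
CPM of summed UMIs (log axis) in gated monocytes (filled) and in all other filtered cells (open) of the tumour library (left) and the normal adjacent library (right). Genes above the dotted line chose the cells; below it, Hp, Ifitm6, F13a1, Fn1, Cd177, Ace and Adgre4 lay higher in gated cells of both libraries, and H2-Ab1, Apoe, Krt8, Ccl5 and Il17a lower.

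Around the C1q limit Plac8 was lower and Ms4a7 higher outside than inside in both libraries. The 4 tumour cells with 0.1 to 0.2% C1q, just inside, had 2517 CPM of Plac8 and 79.5 CPM of Ms4a7, a membrane protein of tissue macrophages. The 9 tumour cells with 0.2 to 0.4%, just outside, had 626 CPM of Plac8 and 192 CPM of Ms4a7. The 5 normal adjacent cells just inside had 909 CPM of Plac8 and 101 CPM of Ms4a7, and the 2 just outside had 0 CPM of Plac8 and 235 CPM of Ms4a7. Gated cells without a single C1q UMI (17 in the tumour library and 14 in the normal adjacent library) had 14.2 CPM of Ms4a7 in the tumour library and 31.6 CPM in the normal adjacent library. At the limit on monocyte genes, the 5 tumour cells and 6 normal adjacent cells with 5 to 7 UMIs had Plac8 at 333 CPM in the tumour library and 271 CPM in the normal adjacent library, and Ly6c2 at 20.8 CPM in the tumour library and 0 in the normal adjacent library.

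Beyond the genes of the rule, gated cells, summed per library, carried a broad monocyte profile in both libraries. Set against all other filtered cells, 444 of 3135 measured genes (14.2%) were at least 1.5-fold higher in both libraries and 193 (6.16%) at least 1.5-fold lower. A measured gene had at least 50 UMIs in the gated cells of both libraries together. All 16 classical monocyte genes outside the rule were higher in both libraries and 15 of them past 1.5-fold, with median log2 ratios of 2.25 in the tumour library and 2.36 in the normal adjacent library, beside 0.11 (tumour) and 0.07 (normal adjacent) over all measured genes. Since the cells were chosen on genes of the same programme, this describes them and tests nothing.

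Several of the leading genes are secreted or act on clotting and adhesion. Hp, the haemoglobin scavenger haptoglobin, had 600 CPM in gated cells and 31.5 CPM in other cells of the tumour library, and 690 CPM in gated cells and 33.4 CPM in other cells of the normal adjacent library. F13a1, a clotting factor subunit made by monocytes, had 245 against 16.6 CPM in the tumour library and 257 against 12.9 CPM in the normal adjacent library. F10, the clotting factor X precursor, stood 11.9-fold above other cells of the tumour library and 11.0-fold above those of the normal adjacent library, and Fn1, fibronectin, 7.36-fold (tumour) and 9.73-fold (normal adjacent). Cd177, a surface protein better known from neutrophils, had ratios of 44.8 in the tumour library and 37.7 in the normal adjacent library, from 54 tumour and 34 normal adjacent UMIs in gated cells. Of 9 neutrophil markers 4 were detected in gated tumour cells and 5 in gated normal adjacent cells, summing to 44 UMIs in 20 tumour cells and 66 UMIs in 16 normal adjacent cells, with at least 3 UMIs in 5 tumour and 4 normal adjacent cells. G0s2 led them with 22 UMIs in tumour cells and 33 in normal adjacent cells, while Ly6g, Camp and Ngp were at 0 in both libraries. Their part in the Cd177 values was not tested. Ifitm6, Ifitm3, Ly6i, Adgre4, Ace, Gda, Emilin2 and Gsr followed, at 5.34-fold to 24.8-fold in the tumour library and 5.37-fold to 22.2-fold in the normal adjacent library. Lower in gated cells were genes of T cells, epithelium and prostate secretion: Il17a had 4.78 CPM against 208 CPM in other tumour cells and 6.95 against 222 CPM in other normal adjacent cells, Cd8b1 had no UMI in any gated cell, and Krt8 had 19.1 against 261 CPM in tumour cells and 5.21 against 223 CPM in normal adjacent cells.

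The nearest cells were those that failed the rule on a single criterion. In the tumour library 86 cells and in the normal adjacent library 54 cells failed only on C1q, and 45 tumour cells and 30 normal adjacent cells failed only by a UMI of Cd209a, a lectin of monocyte-derived dendritic cells, or Flt3, a growth factor receptor of dendritic cells. The other criteria each turned away at most 41 tumour and 24 normal adjacent cells.

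Against cells that failed on C1q alone, gated monocytes were higher for genes of circulating monocytes and lower for genes of settled macrophages. Of all measured genes 391 (12.5%) were past 1.5-fold higher in both libraries and 136 (4.34%) past 1.5-fold lower. Ace, the angiotensin-converting enzyme found on non-classical monocytes, had 82.8 CPM against 0.684 CPM in tumour cells, a ratio of 121 (20.8 to 4869), and 85.2 against 1.11 CPM in normal adjacent cells, a ratio of 76.8 (13.2 to 3096). The cells that failed on C1q held 1 Ace UMI in each library. Mgst1, a glutathione transferase, was 9.60-fold (tumour) and 33.6-fold (normal adjacent) higher, S100a4 5.28-fold (tumour) and 7.25-fold (normal adjacent), and Thbs1, the matrix protein thrombospondin 1, 4.53-fold (tumour) and 5.22-fold (normal adjacent).

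In the other direction Apoe, a lipid carrier of macrophages, had 3151 against 18323 CPM in tumour cells and 2364 against 15038 CPM in normal adjacent cells. Ms4a7 was 24.0-fold (tumour) and 16.9-fold (normal adjacent) lower, Cd81, a tetraspanin, 19.4-fold (tumour) and 17.8-fold (normal adjacent), and Cd72 12.1-fold (tumour) and 10.9-fold (normal adjacent). All 7 measured genes of MHC class II presentation were lower in both libraries, 5 of them past 1.5-fold, with medians of -1.37 (tumour) and -1.23 (normal adjacent). Of 9 measured macrophage maturation genes 7 were lower in both, 6 past 1.5-fold. After each cell was thinned to 2000 UMIs, Apoe was detected in 85.1% of gated tumour cells and 76.5% of gated normal adjacent cells, against 67.4% of tumour B cells and 66.9% of normal adjacent B cells, so Apoe UMIs reached most cells of a type that should lack the gene. B cells here were cells with at least 5 UMIs of Cd79a, Cd79b and Ms4a1 and no Csf1r (179 tumour cells with a median of 4499 UMIs and 293 normal adjacent cells with a median of 5002 UMIs before thinning).

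Against cells that failed on Cd209a or Flt3 alone, gated monocytes had less MHC class II and more genes of microbial sensing. Of all measured genes 333 (10.6%) were past 1.5-fold higher in both libraries and 77 (2.46%) past 1.5-fold lower, and 6 of the 7 MHC class II genes were among the lower. H2-Ab1 had 3527 against 9920 CPM in tumour cells and 3490 against 7643 CPM in normal adjacent cells. C5ar1, the receptor for complement C5a, was 6.52-fold (tumour) and 16.5-fold (normal adjacent) higher and Slc11a1, a metal transporter of phagosomes, 6.31-fold (tumour) and 6.46-fold (normal adjacent). All 10 measured pattern recognition and Fc receptor genes were higher in both libraries, 7 past 1.5-fold, among them Tlr2 at 2.80-fold (tumour) and 3.04-fold (normal adjacent) and Clec4d at 3.58-fold (tumour) and 3.14-fold (normal adjacent). All 9 macrophage maturation genes were higher as well, 4 of them past 1.5-fold.

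The gated cells were not uniform, and Ace divided them along with several other non-classical monocyte genes in both libraries. Of 68 tumour cells 21 had an Ace UMI, as had 15 of 51 normal adjacent cells. Treml4, a receptor of patrolling monocytes, was detected in 12 of 21 tumour cells with Ace and 5 of 47 without, and in 11 of 15 normal adjacent cells with Ace and 7 of 36 without. Adgre4, an adhesion receptor, was detected in 11 of 21 against 9 of 47 tumour cells and in 12 of 15 against 7 of 36 normal adjacent cells. Itgal, an integrin subunit, had 506 CPM in tumour cells with Ace and 107 CPM in those without, and 463 CPM with and 95.1 CPM without in normal adjacent cells. Spn, Eno3, Pou2f2 and Nr4a1 showed the same order in both libraries. Cells with Ace were not deeper, with a median of 7407 UMIs against 9339 in the tumour library and 8795 against 11618.5 in the normal adjacent library.

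Several genes of classical monocytes ran the other way, but Chil3 did not. Ccr2, Vcan, Ly6c2 and Chil3 were among the 6 genes that chose the cells, so their counts are a description only. Fn1 and F13a1 were outside the rule. Ccr2 was detected in 14 of 21 tumour cells with Ace and 45 of 47 without, and in 7 of 15 normal adjacent cells with Ace and 33 of 36 without. Vcan was detected in 2 of 21 against 16 of 47 tumour cells and in 2 of 15 against 9 of 36 normal adjacent cells. In the tumour library Ace was found in 13 of 35 cells with Chil3 and 8 of 33 without. In the normal adjacent library Ace was found in 6 of 21 cells with Chil3 and 9 of 30 without. Depth was not matched in these detection counts. Fn1 had 411 CPM in tumour cells with Ace and 643 CPM in those without, and 81.1 CPM with and 602 CPM without in normal adjacent cells. The division was incomplete: 14 tumour cells and 7 normal adjacent cells carried Ace and Ly6c2 together, 7 tumour and 8 normal adjacent cells carried Ace without Ly6c2, and 37 tumour and 27 normal adjacent cells Ly6c2 without Ace. Other genes, named after their values were seen, also differed: G0s2, an inhibitor of lipolysis and also the leading neutrophil marker in these cells, had 119 against 4.35 CPM in the tumour library and 203 against 17.7 CPM in the normal adjacent library, and Cd36, a fatty acid transporter, 101 against 15.2 CPM in the tumour library and 252 against 8.85 CPM in the normal adjacent library. Between the libraries, the non-classical monocyte list summed to 1834 CPM in tumour cells and 1660 CPM in normal adjacent cells, but 5 of its 11 measured genes were higher and 6 lower in the tumour, 2 past 1.5-fold lower and 0 past it higher, with a median of -0.04. With at least 10 UMIs of the monocyte genes 8 of 9 were higher, with a median of 0.23.

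**Figure D2:**
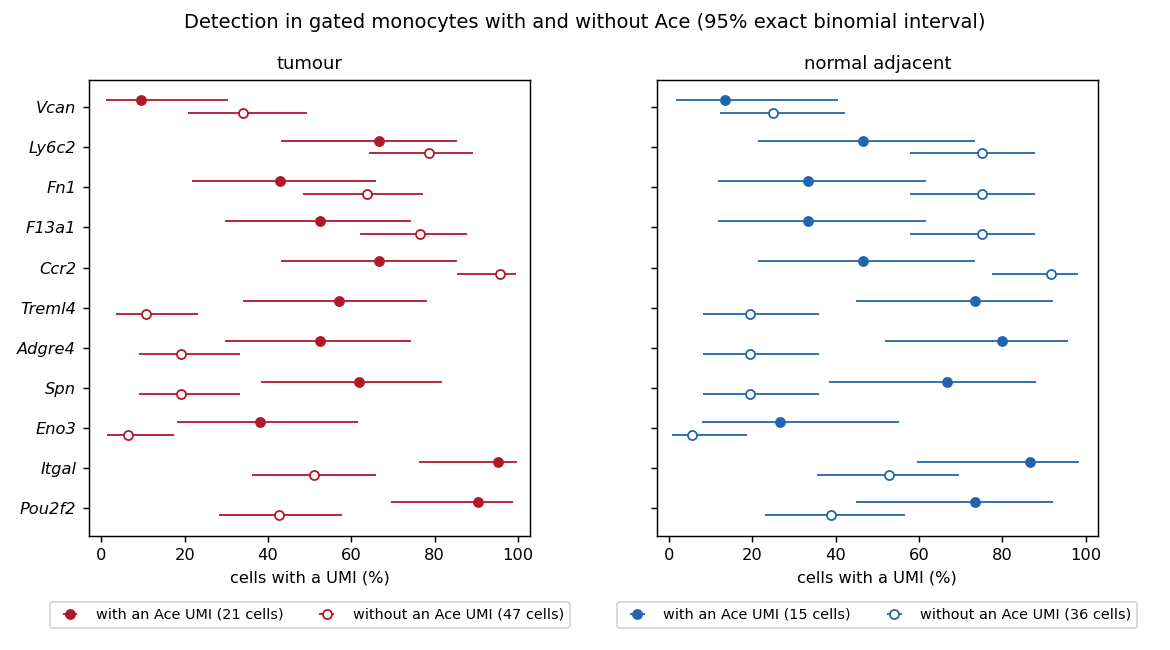
Share of gated cells with a UMI of each gene (%), for cells with Ace (filled) and without Ace (open), in the tumour library (left, 21 and 47 cells) and the normal adjacent library (right, 15 and 36 cells); bars are 95% exact binomial intervals. Vcan, Ly6c2, Fn1, F13a1 and Ccr2 lie to the left in cells with Ace, and Treml4, Adgre4, Spn, Itgal and Pou2f2 to the right.

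When the cells were divided by Ly6c2, F13a1 was detected more often in those with it. It was found in 41 of 51 tumour cells with Ly6c2 and 6 of 17 without, and in 28 of 34 normal adjacent cells with Ly6c2 and 4 of 17 without. Cx3cr1, a gene of the non-classical list, differed in direction between the libraries. It was detected in 29 of 51 tumour cells with Ly6c2 and 6 of 17 without. In normal adjacent cells it was detected in 15 of 34 with Ly6c2 and 9 of 17 without. Tumour cells with Ly6c2 were deeper (median 9565 UMIs) than those without (6222), while normal adjacent cells with Ly6c2 had a median of 10997 UMIs and those without 11823.

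MHC class II genes, which present peptides to CD4+ T cells, had the widest range between cells of the 22 lists. Their 10 genes took 0.0557% to 10.7% of a tumour cell's UMIs, with an upper quartile of 4.31%, and 0.152% to 11.3% of a normal adjacent cell's UMIs, with an upper quartile of 3.06%. At least 5% was reached in 13 of 68 tumour cells and 9 of 51 normal adjacent cells, which together held 50.7% (tumour) and 66.5% (normal adjacent) of all MHC class II UMIs of the gated cells. Cells without any C1q UMI had 3215 CPM of H2-Ab1 in the tumour library and 961 CPM in the normal adjacent library, against 3527 CPM in all gated tumour cells and 3490 CPM in all gated normal adjacent cells.

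**Figure D3:**
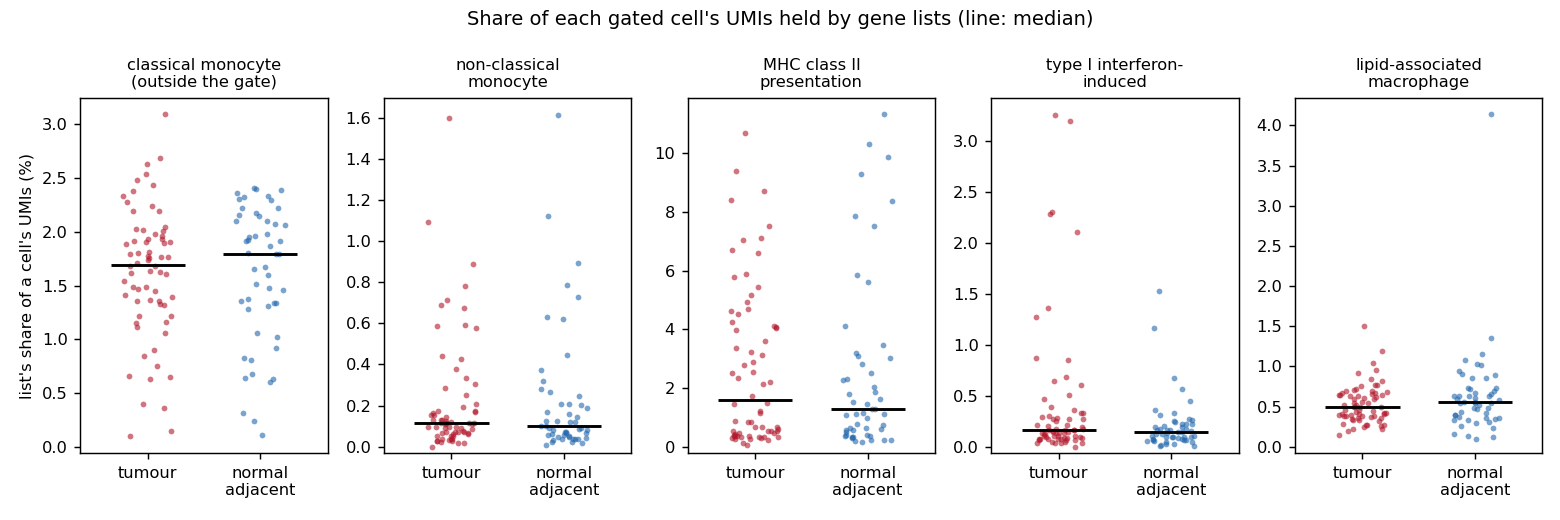
Share of each gated cell's UMIs (%) held by 5 gene lists, 1 point per cell, 68 tumour cells left and 51 normal adjacent cells right in each panel; lines are medians. The type I interferon panel shows a tail of tumour cells reaching 3.26%, above the highest normal adjacent cell at 1.53%, and the lipid-associated panel 1 normal adjacent cell at 4.14%.

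Between the libraries, the gated monocytes of the tumour had higher levels of genes induced by type I interferon, the antiviral cytokines that also act in tumours. All 18 measured genes of this list were higher in tumour monocytes and 8 were past 1.5-fold, beside 272 of 3135 measured genes (8.68%) past 1.5-fold higher and 149 (4.75%) past 1.5-fold lower. The list's median log2 ratio was 0.54, beside 0.02 over all measured genes. Over the alternative gates, scalings and filters tried, the median lay between 0.48 and 1.18, with 1 gene lower where the monocyte genes had to reach 10 UMIs or C1q to stay below 0.1%. Without the cell of each library with the most UMIs of the list, all 15 genes still measured were higher, 9 past 1.5-fold, with a median of 0.77.

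Isg15, a ubiquitin-like modifier, had 559 CPM in tumour monocytes and 174 CPM in normal adjacent monocytes, a ratio of 3.22 (2.57 to 4.06). It was detected in 41 of 68 tumour cells and 30 of 51 normal adjacent cells. Per cell it ranged from 0 to 40 UMIs with a median of 1 in tumour cells, and from 0 to 23 UMIs with a median of 1 in normal adjacent cells. The groups overlapped almost wholly, and the difference lay in the upper range, where the upper quartile was 4.72 Isg15 UMIs per 10000 UMIs of a cell in tumour cells and 1.78 in normal adjacent cells. Thinned to 2000 UMIs, 37.3% of tumour cells and 21.6% of normal adjacent cells kept an Isg15 UMI, against 3.93% (tumour) and 5.92% (normal adjacent) of B cells thinned alike (before thinning, 60.3% of gated tumour cells and 58.8% of gated normal adjacent cells, against 13.4% (tumour) and 14.3% (normal adjacent) of B cells).

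Irf7, the transcription factor that amplifies interferon output, had 371 CPM in tumour monocytes and 169 CPM in normal adjacent monocytes, a ratio of 2.20 (1.73 to 2.82), and was detected in 53 of 68 tumour and 31 of 51 normal adjacent cells. Zbp1, a sensor of nucleic acids in the Z form, had 202 CPM in tumour and 86.9 CPM in normal adjacent cells, a ratio of 2.33 (1.67 to 3.30). Bst2, which tethers viruses to the membrane, had 444 CPM in tumour and 308 CPM in normal adjacent cells, a ratio of 1.44 (1.19 to 1.75), short of 1.5-fold. Rsad2, the antiviral enzyme viperin, had 318 CPM in tumour cells and 95.6 CPM in normal adjacent cells, but 1 cell held 48.5% of its UMIs in the tumour library and 52.7% in the normal adjacent library. Cxcl10, a T cell attractant, had 295 CPM in tumour and 226 CPM in normal adjacent cells, a ratio of 1.30 (1.04 to 1.64), with 41.1% (tumour) and 62.3% (normal adjacent) of its UMIs in 1 cell.

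The signal was concentrated in a few cells. At least 0.5% of a cell's UMIs came from the list in 13 of 68 tumour cells (19.1%, 10.6 to 30.5) and 4 of 51 normal adjacent cells (7.84%, 2.18 to 18.9), and these intervals overlapped. These cells held 65.5% of the list's 2351 UMIs in the tumour library and 40.0% of its 1214 UMIs in the normal adjacent library. The median cell differed little, with 0.161% in tumour cells and 0.140% in normal adjacent cells. Of the 13 tumour cells, 11 had Ly6c2, 5 had Ace and 3 carried at least 3 UMIs of markers of another cell type.

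The nearest other cells gave other values for the same list. Among cells that failed on C1q alone, 16 of 22 measured interferon genes were higher in the tumour library, 4 past 1.5-fold (6.67% of all genes measured there), with a median of 0.17. Among cells that failed on Cd209a or Flt3 alone, 12 of 13 were lower in the tumour library, 6 past 1.5-fold (6.42% of all genes measured there), with a median of -0.57. Isg15 had 559 against 174 CPM in gated cells, 389 against 260 CPM in the C1q cells, and 209 against 300 CPM in the Cd209a or Flt3 cells, each tumour against normal adjacent. Over all other mononuclear phagocytes the median was 0.06 and over all other filtered cells 0.09. With 1 library each, a test of the difference between these sets of cells was not possible, and it was not tested.

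**Figure D4:**
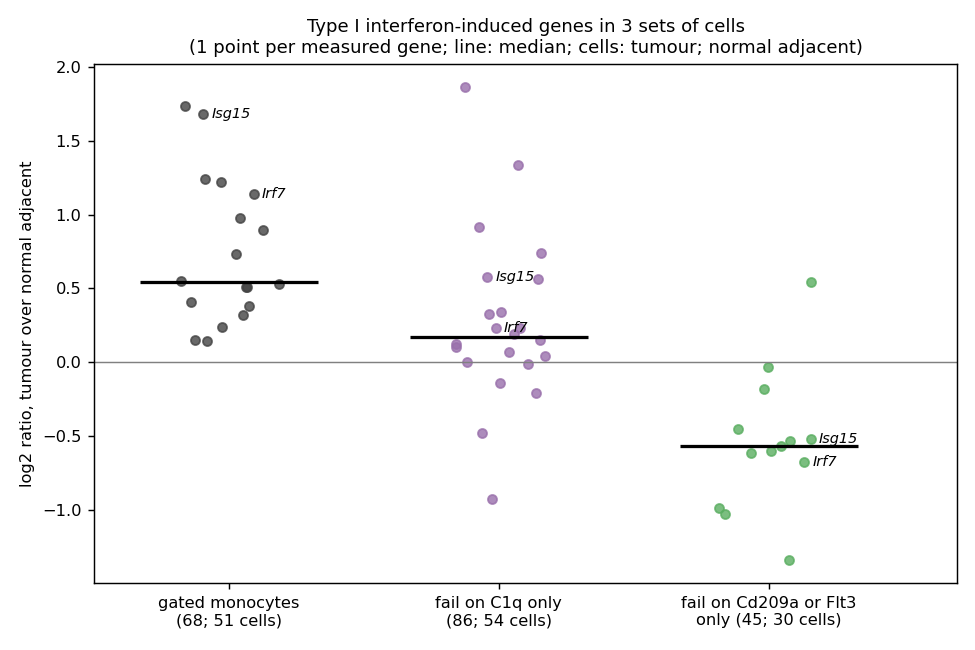
Log2 ratio of CPM, tumour over normal adjacent, for each measured type I interferon-induced gene (points) in gated monocytes, in cells that failed the rule on C1q only and in cells that failed on Cd209a or Flt3 only; lines are medians of 0.54, 0.17 and -0.57. All 18 points of the gated monocytes lie above 0, while 12 of 13 points of the Cd209a or Flt3 cells lie below.

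Promoters were searched for the interferon-stimulated response element, a sequence bound by transcription factors that interferon activates. It was spelled GAAANNGAAA or, on the other strand, TTTCNNTTTC, within 250 bases before and 50 after the start of each gene (RefSeq, GRCm38.p6). Of the 18 measured interferon genes 15 had a window and 9 of these held a match. So did 1079 of all 27025 genes with a window (3.99%) and 126 of the 2496 measured genes with a window (5.05%). The list was made of known interferon-induced genes, so its matches say nothing about the difference between the libraries. Of the 15 genes named as higher in tumour monocytes 11 had a window and 5 held a match, and of the 15 named as lower 10 had a window and 0 held one. A match is a description of the letters, not evidence of binding. The 150 bases before the start are printed for the 5 named genes with a match, to show where the motif lies in genes of this comparison: Isg15 (chr4:156200819-156200968), Phf11b (chr14:59341331-59341480), Lgals9 (chr11:78984925-78985074), Mndal (chr1:173880188-173880337) and Trim30a (chr7:104465194-104465343), all on the minus strand and written 5′ to 3′ along the gene, with the matches in capitals.
Isg15: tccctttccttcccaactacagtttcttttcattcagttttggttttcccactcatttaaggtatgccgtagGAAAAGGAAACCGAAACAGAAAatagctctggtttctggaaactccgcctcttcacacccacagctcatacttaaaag
Phf11b: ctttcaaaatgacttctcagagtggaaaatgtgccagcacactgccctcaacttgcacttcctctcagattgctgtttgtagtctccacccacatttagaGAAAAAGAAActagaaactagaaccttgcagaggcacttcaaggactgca
Lgals9: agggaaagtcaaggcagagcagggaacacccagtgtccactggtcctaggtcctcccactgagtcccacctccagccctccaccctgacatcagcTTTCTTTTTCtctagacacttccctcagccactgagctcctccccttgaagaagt
Mndal: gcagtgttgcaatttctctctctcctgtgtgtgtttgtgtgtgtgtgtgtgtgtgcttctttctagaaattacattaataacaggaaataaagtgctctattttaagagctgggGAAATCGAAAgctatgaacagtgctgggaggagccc
Trim30a: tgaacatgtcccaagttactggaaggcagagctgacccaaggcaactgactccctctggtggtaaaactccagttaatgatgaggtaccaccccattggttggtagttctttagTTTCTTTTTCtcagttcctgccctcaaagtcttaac
In these stretches Isg15 held 3 overlapping matches in a row, and the other 4 genes 1 each. The full window of Lgals9 held 2, the other lying outside the stretch shown.

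The 15 genes named as higher included further antiviral genes. Isg20, an exonuclease against RNA viruses, had 115 CPM in tumour monocytes and 29.5 CPM in normal adjacent monocytes, a ratio of 3.88 (2.26 to 7.02), in 32 of 68 tumour and 8 of 51 normal adjacent cells. Without cells that carried markers of another type its log2 ratio was 3.09 in place of 1.96. Rnf213, an antiviral ubiquitin ligase, had a ratio of 2.44 (1.70 to 3.57), and Phf11b, an interferon-induced zinc finger protein, 3.04 (1.79 to 5.37). Mndal, a DNA sensor family member, had a ratio of 2.18 (1.49 to 3.23) and Trim30a 2.12 (1.43 to 3.19). The last 3 have close relatives in the mouse genome with which reads could be shared.

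Further named genes also lay outside the type I interferon list used here, which does not make them independent of interferon. Osm, oncostatin M, a cytokine of the interleukin 6 family, had 331 CPM in tumour monocytes and 176 CPM in normal adjacent monocytes, a ratio of 1.89 (1.48 to 2.42), and thinned cells kept a UMI in 47.8% (tumour) and 19.6% (normal adjacent) of cells, against 1.12% (tumour) and 1.74% (normal adjacent) of B cells. Thbs1 had 1605 CPM in tumour and 989 CPM in normal adjacent cells, a ratio of 1.62, with 0 to 63 UMIs per cell and a median of 12 in tumour cells and 0 to 58 with a median of 5 in normal adjacent cells. Its log2 ratio of 0.70 fell short of 1.5-fold under 3 alternatives, at 0.46 with C1q below 0.1%, 0.58 without cells with markers of another type and 0.56 without the 3 cells of each library with most such markers. Thbs1 was also higher in the tumour library in all other filtered cells, at a ratio of 1.76, and in the C1q cells at 1.87, but not in the Cd209a or Flt3 cells, at 0.924. Mxd1, a repressor that opposes Myc, had a ratio of 2.61 (1.84 to 3.75), Abca1, a cholesterol exporter, 2.84 (1.69 to 4.96), and Id1, an inhibitor of DNA-binding factors, 3.25 (1.63 to 7.03). Lgals9, a galectin that binds the checkpoint receptor Tim-3, had 118 CPM in tumour and 50.4 CPM in normal adjacent cells, a ratio of 2.34.

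**Figure D5:**
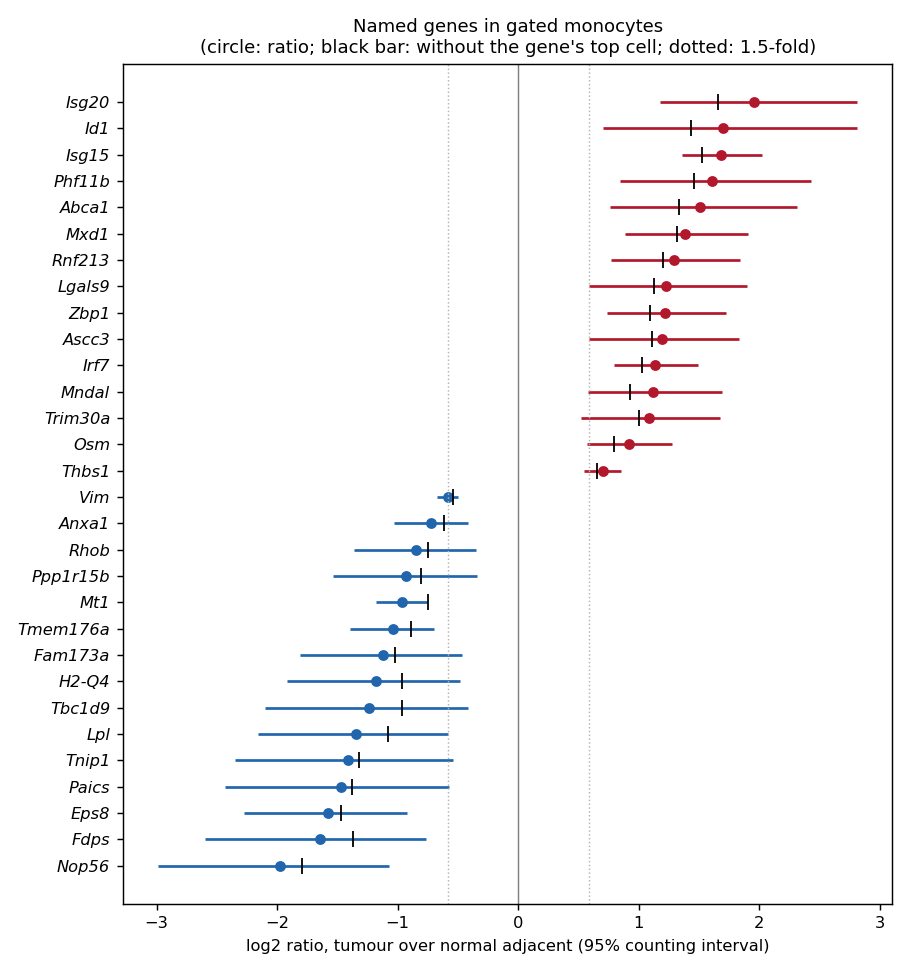
Log2 ratio of CPM in gated monocytes, tumour over normal adjacent, for the 15 genes named as higher (red) and the 15 named as lower (blue), with 95% counting intervals; black bars give the ratio without the cell that held most UMIs of the gene in the higher library. Isg20 lies highest at 1.96 and Nop56 lowest at -1.98, and Vim and Thbs1 lie closest to the dotted 1.5-fold lines.

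The genes named as lower in tumour monocytes included enzymes of growth and metabolism and cytoskeletal genes. Nop56, which helps to assemble ribosomes, had 20.7 CPM in tumour monocytes and 81.7 CPM in normal adjacent monocytes, 3.95-fold lower (2.10 to 7.95), in 11 of 68 tumour and 22 of 51 normal adjacent cells. Paics, an enzyme of purine synthesis, was 2.77-fold lower (1.49 to 5.41), and Fdps, an enzyme of the cholesterol pathway, 3.13-fold lower (1.70 to 6.06). Vim, the filament protein vimentin, had 3167 CPM in tumour and 4758 CPM in normal adjacent cells, a ratio of 0.666 (0.628 to 0.705), and fell short of 1.5-fold under 3 alternatives, among them without its top cell (log2 ratio -0.54). Its median was 31.2 UMIs per 10000 in tumour cells and 48.3 in normal adjacent cells. Eps8, which caps actin filaments, was 2.99-fold lower (1.90 to 4.84) and Anxa1, an anti-inflammatory annexin, 1.65-fold lower (1.33 to 2.04). Of the 30 named genes 28 stayed past 1.5-fold in every setting in which they had enough UMIs, the exceptions being Thbs1 and Vim. Not every gene had enough in each of the 14 settings: Id1 had a value in 7, and Paics and Tnip1 in 10. The genes had been picked by their intervals with all gated cells, which favours such stability.

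Mt1 was also named as lower, and Hmox1, Hspa1a, Hspb1 and Hsp90b1 are given beside it, chosen after their values were seen. Mt1, a metallothionein, had 474 CPM in tumour monocytes and 928 CPM in normal adjacent monocytes, 1.96-fold lower (1.69 to 2.26). Hmox1, the haem-degrading oxygenase, had 182 CPM in tumour and 620 CPM in normal adjacent cells, 3.42-fold lower (2.76 to 4.26), and was detected in 27 of 68 tumour and 32 of 51 normal adjacent cells, with 0 to 27 UMIs per tumour cell and 0 to 77 per normal adjacent cell. It was not among the named genes because 1 normal adjacent cell held 21.6% of its UMIs. It was also lower in the tumour library in the C1q cells, the Cd209a or Flt3 cells and all other filtered cells, at ratios of 0.813, 0.520 and 0.829, nearer to 1. Hspa1a, a heat shock protein, had 41.4 CPM in tumour and 137 CPM in normal adjacent cells, with 36.7% of the normal adjacent UMIs in 1 cell, and was 1 of 6 measured heat shock chaperones that were lower, against 3 that were higher, with 1 past 1.5-fold in each direction and a median of -0.09. The one past 1.5-fold higher was Hspb1, a small heat shock protein, with 63 UMIs in tumour monocytes and 2 in normal adjacent monocytes, and 1 cell held 92.1% of its tumour UMIs. Hsp90b1, a chaperone of the endoplasmic reticulum outside that list, had 513 CPM in tumour monocytes and 337 CPM in normal adjacent monocytes, a ratio of 1.52 (1.27 to 1.83).

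The direction of the MHC class II genes, which serve antigen presentation, depended on which cells were kept. Of the 7 measured MHC class II genes 3 were higher and 4 lower in tumour monocytes, none past 1.5-fold, with a median of -0.01. Without cells with markers of another type all 7 were higher, with a median of 0.29, and 6 of 7 were higher where the monocyte genes had to reach 10 UMIs (median 0.14) or C1q to stay below 0.1% (median 0.11), none past 1.5-fold. H2-Aa had 4979 CPM in tumour monocytes and 5024 CPM in normal adjacent monocytes, and H2-Eb1 3067 CPM in tumour and 3775 CPM in normal adjacent cells. Of 13 class I genes 10 were higher, with none of these past 1.5-fold, and the median was 0.20. With C1q below 0.1% 9 of 13 were higher, 3 past 1.5-fold, with a median of 0.41, and with at least 10 UMIs of the monocyte genes 8 of 13, with a median of 0.13. H2-T23, a non-classical class I molecule, had 304 CPM in tumour and 203 CPM in normal adjacent cells, just short of 1.5-fold, while H2-Q4 was past it in the other direction, 2.27-fold lower. Both belong to a gene family with near-identical copies. The costimulation and checkpoint ligand list had 4 measured genes. Of these, Lgals9 and Havcr2, which encodes the receptor Tim-3 rather than a ligand, were past 1.5-fold higher, beside 8.68% of all measured genes. Cd86, a ligand of CD28, had 220 CPM in tumour and 155 CPM in normal adjacent cells, a ratio of 1.42 (1.08 to 1.88). Cd274, which encodes PD-L1, had 26 UMIs in gated tumour cells and 15 in gated normal adjacent cells. Thinned cells kept a Cd274 UMI in 5.97% (tumour) and 3.92% (normal adjacent), against 6.74% (tumour) and 6.97% (normal adjacent) of B cells. Whether the B cells made Cd274 themselves was not tested, so they give no background level for it.

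Among cytokines, Il1b, the inflammatory interleukin 1 beta, had a ratio near 1, with 2368 CPM in tumour monocytes and 2235 CPM in normal adjacent monocytes (ratio 1.06, 0.982 to 1.14). Of 6 measured inflammatory mediators 5 were higher and only Osm was past 1.5-fold, beside 8.68% of all measured genes, with a median of 0.06. Without cells with markers of another type all 6 were higher, with a median of 0.54. Il6, Il12b, Il23a, Il27 and Il10 had at most 6 UMIs in either library. Of the enzymes that consume arginine, Arg1 had 1 UMI in tumour monocytes and 0 in normal adjacent monocytes and Nos2 had 0 in both, where a count of 0 allows up to 3 counts per library. Arg2 was measured and was 1.61-fold lower in tumour monocytes (1.06 to 2.47).

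Of 10 measured chemokines 5 were higher and 5 lower, with a median of -0.01. Cxcl2, a neutrophil attractant, had 1360 CPM in tumour monocytes and 1818 CPM in normal adjacent monocytes, and Ccl6 761 CPM in tumour and 928 CPM in normal adjacent cells. Ccl5 was past 1.5-fold higher, but 25.4% of its tumour UMIs came from 1 cell, and thinned gated cells kept a UMI in 13.4% (tumour) and 15.7% (normal adjacent), against 11.2% (tumour) and 21.6% (normal adjacent) of B cells. Cxcl9 had 0 UMIs in tumour monocytes and 13 in normal adjacent monocytes.

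Receptors for migration leaned higher in the tumour, with 11 of 13 genes higher, 2 past 1.5-fold, beside 8.68% of all measured genes, and a median of 0.21. With C1q below 0.1% 8 of 13 were higher, none past 1.5-fold, with a median of 0.14. Itga4, the integrin subunit that binds Vcam1, had 277 CPM in tumour and 179 CPM in normal adjacent cells, a ratio of 1.55 (1.21 to 1.99). Ccr1 ran the other way, with 202 CPM in tumour and 278 CPM in normal adjacent cells. Of 10 measured pattern recognition and Fc receptor genes 5 were higher and 5 lower, with a median of -0.02. Past 1.5-fold higher were 2, beside 8.68% of all measured genes. Fcgr1, the high-affinity receptor for IgG and an interferon-responsive gene, had 156 CPM in tumour and 79.9 CPM in normal adjacent cells, a ratio of 1.95 (1.36 to 2.83). Fcgr3, another Fc receptor, ran the other way, with 320 CPM in tumour and 375 CPM in normal adjacent cells. Among cytokine receptors Il10ra (68.5 CPM in tumour and 38.2 CPM in normal adjacent cells) was higher and Il1r2, the decoy receptor of interleukin 1, lower, with 113 CPM in tumour and 181 CPM in normal adjacent cells, and 1 cell held 41.4% of its normal adjacent UMIs.

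The classical monocyte genes that set these cells apart did not separate the libraries. Of 16 genes 9 were higher and 7 lower in tumour monocytes, none past 1.5-fold, with a median of 0.01. Hp had 600 CPM in tumour monocytes and 690 CPM in normal adjacent monocytes, Cd14, the endotoxin co-receptor, 2576 CPM in tumour and 2556 CPM in normal adjacent cells, and F13a1 245 CPM in tumour and 257 CPM in normal adjacent cells. Hypoxia and glycolysis genes (7 of 16 higher, median -0.02), oxidative phosphorylation genes (5 of 16 higher, median -0.10) and myeloid transcription factors (6 of 11 higher, median 0.06) had no gene past 1.5-fold with all gated cells. Without the top lipid-associated cell of each library 11 of 15 hypoxia and glycolysis genes were higher, 1 past 1.5-fold, with a median of 0.11.

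Lipid-associated macrophage genes were mostly lower in tumour monocytes, by a margin that depended on the cells kept. Of 14 measured genes 13 were lower in tumour monocytes, 5 past 1.5-fold, beside 4.75% of all measured genes, with a median of -0.48. Without the 3 cells with most UMIs of other types all 14 were lower, 8 past 1.5-fold, with a median of -0.66, and without cells with markers of another type 12 of 13, 6 past 1.5-fold, with a median of -0.44. A single normal adjacent cell held 763 of that library's 3895 UMIs of the list, 19.6%. That cell had no UMI of Ly6c2 or C1q and 3 of Plac8, and it held 67.3% of the Ctsd UMIs and 80.0% of the Gpnmb UMIs. Without the cell of each library with the most UMIs of the list, 10 of 13 genes were lower, 2 past 1.5-fold, with a median of -0.24. Ctsd, a lysosomal protease, then had 349 CPM in tumour monocytes and 368 CPM in normal adjacent monocytes, in place of 366 CPM in tumour and 1090 CPM in normal adjacent cells. Cd9 and Cd63, both tetraspanins, changed direction, with log2 ratios of 0.45 and 1.11 in place of -0.47 and -0.22. Lpl, which hydrolyses triglycerides, stayed lower (33.4 CPM in tumour and 85.2 CPM in normal adjacent monocytes, all cells kept), in 8 of 68 tumour and 16 of 51 normal adjacent cells. Trem2, the lipid receptor of such macrophages, had 74.8 CPM in tumour and 136 CPM in normal adjacent cells, a ratio of 0.552 with all cells and 0.685 without those cells.

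Markers of other cell types were present in some gated cells. At least 3 UMIs of neutrophil, T, NK, B, epithelial, fibroblast, endothelial, or mast cell and basophil markers were found in 13 of 68 tumour cells and 10 of 51 normal adjacent cells. Epithelial markers summed to 282 UMIs in the tumour library, 245 of them in 1 cell, and to 25 in the normal adjacent library. Krt14, a basal keratin, had 97.7% of its 132 tumour UMIs in 1 cell. NK cell markers summed to 300 UMIs in the tumour library and 202 in the normal adjacent library, of which 173 (tumour) and 151 (normal adjacent) lay in 1 cell. B cell markers summed to 82 UMIs in the tumour library, 49 of them in 1 cell, and to 5 in the normal adjacent library. Migratory dendritic cell markers summed to 9 UMIs in the tumour library and to 108 in the normal adjacent library, 105 of them in 1 cell, while the 4 plasmacytoid dendritic cell markers were at 0 in both. Without the 13 tumour and 10 normal adjacent cells counted first, the interferon list stood at 15 of 15 genes higher with a median of 1.02. The number of genes past 1.5-fold higher then stood at 181 in place of 272, out of fewer measured genes, because fewer cells hold fewer UMIs. Dendritic cell markers were not a ground for leaving a cell out here.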

How the data were processed

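The values are raw UMI counts per gene and cell, as deposited; their headers name Cell Ranger 4.0.0. The submitters' processing notes list Cell Ranger, R 4.0.3, Seurat 3.2.2 and GRCh38, while every feature in the files is a mouse gene; no mouse build is named. Cells with at least 200 genes and at most 20% mitochondrial UMIs were kept and gated as described above. No doublet caller was run: cells with at least 3 UMIs of another type's markers were counted and left out in an alternative. UMIs were summed per library, and ratios have exact conditional binomial intervals, shares exact Clopper-Pearson intervals and share differences Newcombe intervals. With 1 library per group there is no test; 1.5-fold marks size only. Named genes between libraries had at least 50 UMIs in all, 50 CPM and detection in 10% of cells of the higher library, and at most 20% of its UMIs in 1 cell; the 15 whose interval stood farthest from 1 were taken each way. Members, gene lists and rules were chosen with earlier results of these data known. Alternatives changed the gate, cell filters, scaling, depth and single cells. Promoters came from RefSeq GRCm38.p6. Python 3.11.15, NumPy 2.4.6, SciPy 1.17.1, pandas 2.3.3 and matplotlib 3.10.9 were used, and the scripts were checked on simulated data.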

Additional observations from a re-analysis of the deposited data

How the results depend on the processing

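No paired analysis was possible because each group had 1 library, and for the same reason no replicate could be left out. The number of genes at least 1.5-fold higher in tumour monocytes was 272, and was 181 without cells with markers of another type, 79 after thinning to 3000 UMIs and 758 with a minimum of 20 UMIs per gene. The number at least 1.5-fold lower was 149, and was 46 after thinning and 454 with a minimum of 20 UMIs. Thinning and leaving out cells leave fewer genes measured, and the lower minimum adds genes of few counts. The counts are therefore out of different numbers of measured genes, and the shares in these settings are not given here. Under the other alternatives these numbers lay between 234 and 301 and between 133 and 163. Leaving out the top interferon cell, the top lipid-associated cell or the 3 cells with most markers of other types was chosen after seeing the data. None of the compared named genes, list medians, shares and counts reversed past its call. Cd9 and Cd63, given above, were not among the named genes, and both turned from lower to higher without the top lipid-associated cells. Of 354 comparisons of named genes 345 moved by less than the reach of the gene's counting interval, and 234 of 254 list medians by less than that of the list's middle gene. Another scaling shifted all ratios by 0.02 on the log2 scale. The 68 and 51 cells limit what can be seen of rare cells and of genes with few UMIs.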

Other observations

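Immediate early genes, which respond within minutes to stimulation and also to tissue digestion, were higher in tumour monocytes for 12 of 16 measured genes, 2 past 1.5-fold, beside 8.68% of all measured genes, with a median log2 ratio of 0.22. Without the 3 cells with most UMIs of other types 8 of 16 were higher, 1 past 1.5-fold higher and 3 past it lower, with a median of 0.01, and without all cells with markers of another type 9 of 16 were higher, with a median of 0.07. Btg2, an antiproliferative gene, had 640 CPM in tumour monocytes and 394 CPM in normal adjacent monocytes, and Ier2 352 CPM in tumour and 222 CPM in normal adjacent cells. Of 4 measured interferon gamma-induced genes 3 were past 1.5-fold higher, among them Socs1, a feedback inhibitor of cytokine signalling, with 63.7 CPM in tumour and 26.1 CPM in normal adjacent cells, while Irgm1 had 76.4 CPM in tumour and 79.9 CPM in normal adjacent cells. That count is also beside 8.68% of all measured genes, and it fell to 0 of 2 genes without cells with markers of another type, 1 of 2 without the 3 cells with most UMIs of other types or with C1q below 0.1%, and 1 of 3 with at least 10 UMIs of the monocyte genes.

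Cycling cells were rare among the gated monocytes. Mki67, a marker of dividing cells, was detected in 2 of 68 tumour cells and 3 of 51 normal adjacent cells, and the median of the 6 measured cell cycle genes ranged from -1.45 to 1.18 over the alternatives. Svs2, a seminal vesicle secretory protein, had 108 CPM in tumour monocytes and 8.69 CPM in normal adjacent monocytes, in 26 tumour and 2 normal adjacent cells. In the tumour library 1 cell held 45.6% of its UMIs, and the normal adjacent value rested on 5 UMIs. Svs2 was 4.61-fold higher in the tumour library in all other filtered cells. Svs5, another seminal vesicle secretion gene, ran the other way. It had 66.9 CPM in tumour monocytes and 104 CPM in normal adjacent monocytes. All other filtered cells had 2037 CPM of Svs5 in the tumour library and 3474 CPM in the normal adjacent library. Ly6a, a surface protein of the Ly6 family, had 167 CPM in tumour and 6.95 CPM in normal adjacent cells, with 43.8% of its tumour UMIs in 1 cell. These genes were named after their values were seen.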
